A study of Saccharomyces cerevisiae with 20 samples.

Results

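These results describe the 3′ UTR densities of 1208 yeast genes, the ones with a value in all 20 samples among 3932 genes listed in the deposited 3′ UTR table. A density is the number of reads per nucleotide (nt) of the 3′ UTR divided by the number of reads per nt of the coding sequence of the same gene in the same sample, so a density of 1 means equal coverage of both. The study grew Saccharomyces cerevisiae BY4741 carrying a HIS3-marked wild-type CDC33 gene, which encodes the cap-binding protein eIF4E, or a HIS3-marked temperature-sensitive allele, cdc33-ts4-2, with 2 amino acid changes. The strain with this allele is called ts here. Cultures in rich medium (YPD) grew at 25°C or spent 1 h at 37°C, and RNA-seq was done on 3 samples and ribosome profiling on 2 samples of each strain and temperature. Lysates for ribosome profiling were made with cycloheximide and digested with RNase I. The study describes the ts cells as holding less eIF4E at 25°C already. After the shift to 37°C it reports a further loss of eIF4E and of most polysomes. Puromycin incorporation there was much lower than in CDC33 cells. It describes the ribosome-protected fragments as lacking the usual length and reading-frame pattern of footprints. It still took them as ribosome-bound, because reads were enriched in coding sequences and 5′ UTRs and sparse in introns and 3′ UTRs. Coverage centred on the coding start was its other evidence. The 3′ UTR part of that evidence rests on the densities described here. All groups share the BY4741 background and the HIS3 marker, and each strain is 1 construct.

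A ribosome reads the coding sequence, stops at the stop codon and is released there by the termination factors, after which recycling factors split it from the mRNA. The 3′ UTR that follows is therefore part of the mRNA seen by RNA-seq but carries few ribosomes in growing cells. Ribosome-protected fragments in it are known from stop codon readthrough, in which a tRNA decodes the stop codon and translation goes on in frame, from ribosomes that are not recycled, and from RNA fragments protected by other proteins. eIF4E recruits mRNAs to the ribosome through their 5′ cap and thus acts at the start of translation.

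The 1208 genes were better expressed than the rest of the list. The authors' mean normalized count had a median of 1029 in RNA-seq and 1279 in ribosome profiling for these genes, against 136 and 224 for the 2724 other lines. Of the 1208, 1205 were found in the R64 reference. The other 3, R0020C, R0030W and R0040C, are named by locus only. Their coding sequences ended with TAA in 633 genes, TGA in 326 and TAG in 246. The authors' 3′ UTR length was given for 256 of them, with a median of 200 nt and a range of 46 to 1907 nt.

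The stop codon regions of the 10 genes with the highest ribosome-profiling density are shown because their 3′ UTRs carried the most fragments relative to the coding sequence. Each line gives 6 coding bases, the stop codon in capitals and the 9 bases after it, from the RefSeq copy of R64 and read on the coding strand.
YPR003C: ctagtgTAAaacttcgaa
YOR1: agaagtTAAtttatatta
JSN1: gcaaacTGAcgtccccat
PMD1: cgaagaTAAacatattag
VIR1: aacaatTAAttatctctg
SSD1: agggtaTAAtctcttcta
GDH2: agtgctTGAgcttcaata
SFK1: gtcgtaTGAcctcatata
MYO2: ggccacTAAaactgatgg
NGR1: ctacatTGAttacaaaag
The windows of YPR003C, JSN1 and SFK1 lie at chrXVI:561495-561512 (minus strand), chrX:595052-595069 (minus strand) and chrXI:342365-342382 (plus strand). Of the 10 genes, 6 ended with TAA, 4 with TGA and 0 with TAG. The stop codon was followed by C in 2 of them, JSN1 and SFK1, and both had TGA followed by C, a combination present in 13 of the 1205 genes. In YPR003C, 74 sense codons separated the stop codon from the next stop codon in frame. The median was 10 codons, and 14 of 1205 genes, YPR003C included, had at least 74. The distance was 39 codons in JSN1 and 4 in SFK1.

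RNA-seq covered 3′ UTRs about as deeply as coding sequences, while ribosome-profiling densities were low in every group and least low in ts cells at 37°C. The median RNA-seq density was between 0.754 and 1.00 in 11 samples and 0.610 in CDC33 cells at 25°C, replicate 1, which was below all the others. That library also had the lowest scaled coverage of the 3′ UTR relative to the coding sequence, 0.814 against 1.00 to 1.32 in the other 11. In ribosome profiling, the 6 samples of the other groups had medians between 0 and 0.00372, and the ts samples at 37°C had medians of 0.0102 and 0.0170. Between 231 and 605 of the 1208 genes were listed at 0 in a ribosome-profiling sample, and 256 genes (21.2%) were above 0 in all 8. The tables hold no read counts per sample, only the authors' means over samples. The depth behind a density is thus unknown, and a value of 0 cannot be told from a region too thinly sequenced.

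**Figure D1:**
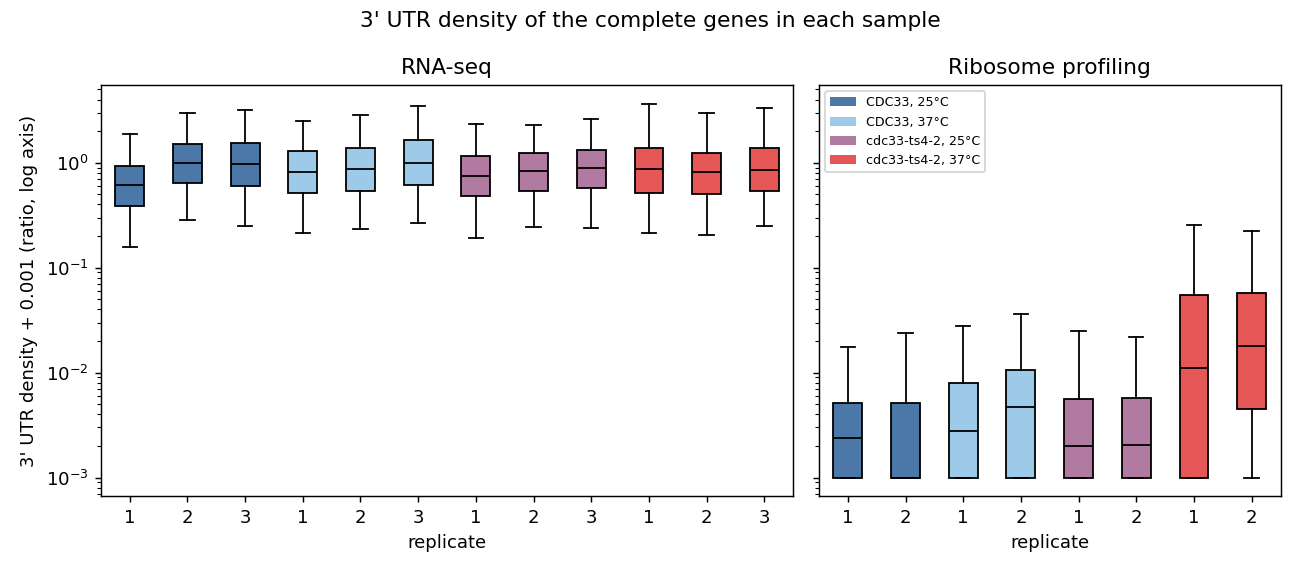
3′ UTR density (ratio, with 0.001 added, log axis) of the 1208 genes in each of 12 RNA-seq and 8 ribosome-profiling samples. Boxes span the quartiles with the median as a line, whiskers reach the 5th and 95th percentiles, and colours mark strain and temperature; the 2 ts samples at 37°C, with medians of 0.0102 and 0.0170, stand above the other 6 ribosome-profiling samples.

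The density of a gene was far more repeatable in RNA-seq than in ribosome profiling. Across the 1208 genes, Spearman's rho between replicates of one group was 0.86 to 0.95 in RNA-seq. In ribosome profiling it was 0.25 to 0.55, with the highest value between the 2 ts samples at 37°C. These are descriptions across genes, which share each library's depth and coding-sequence counts.

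The comparison of the assays asked how much of the mRNA signal in the 3′ UTR was seen in ribosome-protected fragments. Over all 20 samples, ribosome-profiling density was lower than RNA-seq density in 1204 of 1208 genes (99.7%) and higher in 0 (0 also at an unadjusted p below 0.05), by limma on log2(density + 0.01) with a Benjamini-Hochberg adjusted p of at most 0.05. The genes not called lower were RSC30, ECM30, R0020C and COS6. RSC30, a subunit of the RSC chromatin remodeler, and ECM30 were listed at 0 in every sample of both assays. COS6, a subtelomeric multicopy gene, ranged from 0 to 0.00545 in RNA-seq and was listed at 0 in every ribosome-profiling sample (limma, Benjamini-Hochberg adjusted p = 0.054).

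Some of the extreme RNA-seq densities went with repeated sequence. The share of 30-base words found elsewhere in the genome was 100% in the 200 nt after the stop codon of RSC30 and 86.0% after COS6. After ECM30 it was 0%. SOD1, the copper-zinc superoxide dismutase, was the lowest gene above these at 0.0192 to 0.0433 in the 12 RNA-seq samples, and its annotated 3′ UTR was the longest, 1907 nt. At the upper end, the translation elongation factor genes TEF1 (5.40 to 12.2), TEF2 (4.20 to 10.9) and EFT2 (7.02 to 12.7) had 95.5%, 95.5% and 95.2% of their coding words repeated elsewhere, and 0% after the stop codon. Reads were kept by the authors only where they mapped to 1 position, so the coding count in the denominator of these genes is uncertain. Most genes with repeated coding words were not extreme. The 18 genes with at least 50% of coding words repeated had a median RNA-seq density of 1.14, with quartiles of 0.784 and 1.46. The median was 0.881 in the 1187 genes under 50%. In the 4 genes with at least 50% repeated after the stop codon it was 0.0271. UTP6, a component of the small-subunit processome, had the highest RNA-seq density of all, 9.24 to 43.3, with 0% of its coding words repeated, and its higher samples fell in several groups (43.3 in CDC33 cells at 37°C, 31.7 in CDC33 cells at 25°C and 40.7 in ts cells at 37°C). The remaining genes of the top 10 were SPT5, KSP1, BEM2, CDC25, OSH2 and GAL11, whose densities ranged from 1.90 to 11.6.

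YPR003C, a predicted membrane transporter of the sulfate permease family, carried fragments in its 3′ UTR in every ribosome-profiling sample. Its density was 0.489 and 0.451 in CDC33 cells at 25°C, 1.01 and 0.751 at 37°C, 0.411 and 0.276 in ts cells at 25°C, and 1.12 and 0.487 at 37°C. The lowest of these was above the highest ribosome-profiling density of SFK1 in any sample outside ts cells at 37°C, 0.163. In CDC33 cells the samples at 37°C lay above those at 25°C, and in ts cells likewise. Neither difference was called by limma (Benjamini-Hochberg adjusted p = 1 and 0.478). SFK1, a plasma membrane protein, had 0.0636 and 0.144 in CDC33 cells at 25°C, 0.112 and 0.0747 at 37°C, and 0.163 and 0.121 in ts cells at 25°C. In ts cells at 37°C SFK1 reached 0.398 and 0.307, above all 6 other samples, and its rise did not pass either (limma, adjusted p = 0.115).

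The 10 genes were chosen on these densities, so their values are a description. The other 8 had their highest densities in ts cells at 37°C. JSN1, an mRNA-binding protein of the Puf family, had 1.12 and 1.08 there, against 0.0107 to 0.123 in the 6 other samples. YOR1, a drug-exporting ABC transporter, had 0.964 and 1.52, against 0 to 0.0905. SSD1, a translational repressor that binds mRNA, had 0.827 and 0.628, against 0 to 0.0422. MYO2 (type V myosin), NGR1 (an RNA-binding protein), PMD1, VIR1 and GDH2 completed the list. In each of the 8 genes both ts samples at 37°C lay above the 6 others. The genes were chosen by their mean over groups, to which ts cells at 37°C gave the most. This separation therefore follows in part from the choice. The 10 genes had a median coding length of 3277.5 nt, against 1440 nt over all the genes.

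**Figure D2:**
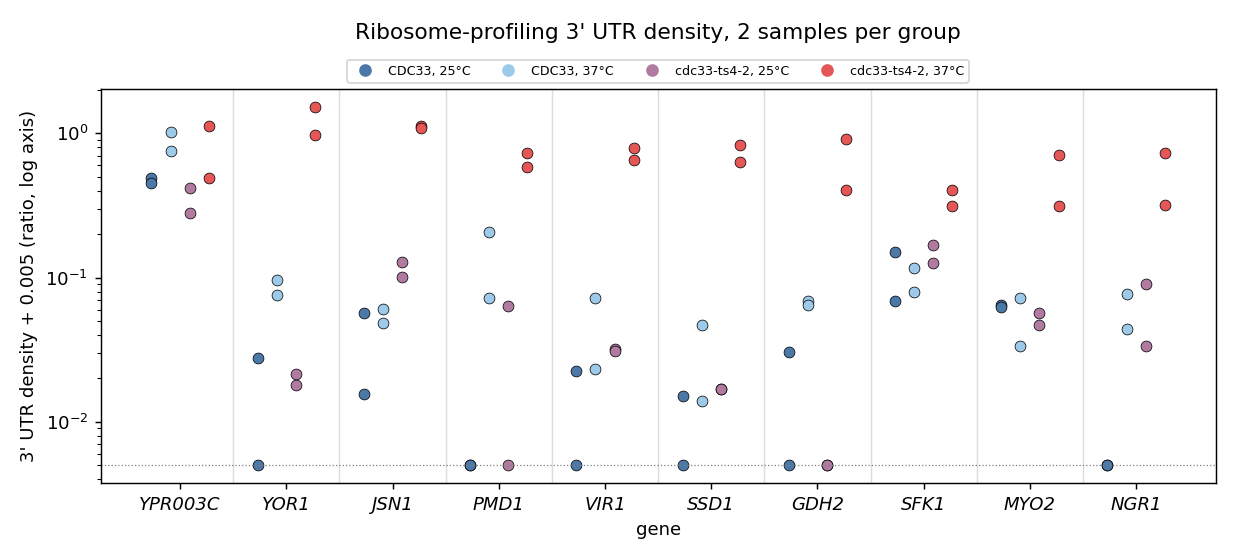
Ribosome-profiling 3′ UTR density (ratio, with 0.005 added, log axis; the dotted line marks a density of 0) of the 10 genes with the highest mean density, with 1 point per sample and 2 samples per strain and temperature. YPR003C lies between 0.276 and 1.12 in all groups, and the other 9 genes have their highest values in ts cells at 37°C.

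The main comparison asked whether 1 h at 37°C changed the ribosome-profiling density of each 3′ UTR in each strain. In ts cells, density changed in 449 of 1208 genes (37.2%), rising in 442 (36.6%) and falling in 7 (0.579%), by limma with a Benjamini-Hochberg adjusted p of at most 0.05. The median change over all genes was 0.91 on the log2(density + 0.01) scale. In CDC33 cells it changed in 11 genes (0.911%), rising in 9 (0.745%) and falling in 2 (0.166%), with a median change of 0.09. The added 0.01 compresses changes at low density. Median densities went from 0.00176 to 0.00378 in CDC33 cells and from 0.00196 to 0.0176 in ts cells. All 9 genes that rose in CDC33 cells, and 127 of the 442 in ts cells, were listed at 0 in both samples at 25°C, so the size of their fitted change depends on the added constant and is no fold change. A pair of samples at 0 also shows no spread, which lowers the estimated spread and the p-values of such genes.

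Among the genes that passed, the 6 largest fitted rises in ts cells were in GDH2, GEA2, YOR1, CMP2, TAO3 and ALY2. GDH2, the NAD-dependent glutamate dehydrogenase, went from 0 in both samples at 25°C to 0.908 and 0.402 at 37°C, a fitted change of 5.94 ± 0.69 (SE, n = 2 per group; limma, Benjamini-Hochberg adjusted p = 0.0034). In CDC33 cells GDH2 had 0.0256 and 0 at 25°C and 0.0637 and 0.0591 at 37°C. YOR1 rose by 5.62 ± 0.61 from densities of 0.0165 and 0.0131. GEA2 (an Arf exchange factor), CMP2 (a calcineurin catalytic subunit), TAO3 (a scaffold of the RAM network) and ALY2 (an arrestin-like adaptor) rose by 5.33 to 5.73, each from 0 in both samples at 25°C to between 0.363 and 0.735 at 37°C. The samples at 25°C and 37°C did not overlap in any of these genes. Without regard to the test, both samples at 37°C lay above both at 25°C in 54.6% of all genes and below in 3.06% in ts cells, and in 27.1% and 6.46% in CDC33 cells.

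The falls were small in number and of low level. SFP1, the transcriptional activator of ribosomal protein genes, had 0.0290 and 0.0262 in ts cells at 25°C and 0 in both samples at 37°C (limma, Benjamini-Hochberg adjusted p = 0.0034). It had 0.0204 and 0.0253 in CDC33 cells at 25°C and again 0 in both at 37°C (adjusted p = 0.0495), so it fell in both strains. DCP2, the mRNA decapping enzyme, had 0.0194 and 0.0167 in ts cells at 25°C and 0 in both at 37°C, and in CDC33 cells 0 in both at 25°C and 0.0134 and 0.0113 at 37°C, which did not pass (limma, Benjamini-Hochberg adjusted p = 0.184). VID27, STE4 (the G protein beta subunit of the pheromone pathway), ADO1 (adenosine kinase) and RPL18B (a ribosomal protein) also fell in ts cells, where they had between 0.00536 and 0.0288 at 25°C and 0 in both samples at 37°C.

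In CDC33 cells, MCH1, a homologue of monocarboxylate permeases, had the largest fitted rise among the genes that passed. It was at 0 in both samples at 25°C and at 0.0589 and 0.0532 at 37°C (limma, Benjamini-Hochberg adjusted p = 0.0063). In ts cells it had 0 in both at 25°C and 0.0819 and 0.0729 at 37°C, and it is 1 of 4 genes, with TDA7, OXA1 and TGL4, that rose in both strains. TDA7, OXA1 (the mitochondrial inner membrane insertase), TGL4 (a triacylglycerol lipase), PNS1 and VBA4 rose to between 0.0175 and 0.0451. PNS1 and VBA4 were at 0 in all 4 ts samples. KTR1, a mannosyltransferase, fell from 0.00406 and 0.00370 to 0, a level at which single reads matter and the depth is unknown.

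The calls in CDC33 cells rested on the spread shared with the other groups: with only the compared samples in the fit, an alternative chosen after seeing the data, 0 genes passed (133 at an unadjusted p below 0.05). With the samples at 25°C and 37°C of one strain paired by their number, another alternative chosen after seeing the data, 0 genes passed in CDC33 cells as well (58 at an unadjusted p below 0.05), and 281 passed in ts cells, 278 of them rises. Single libraries moved the 11 calls to between 4 and 30, with 4 and 6 without either ts sample at 25°C, 30 and 28 without either at 37°C, 17 without CDC33 at 25°C replicate 2, and 27 and 20 without either CDC33 sample at 37°C. In ts cells the fit of the compared samples left 218 calls, 209 of them rises, and 246 and 229 genes passed without either ts sample at 25°C. Centring each sample on its own median, which asks for changes relative to the typical gene, turned the split in ts cells from 442 rises and 7 falls to 171 and 254. A gene at 0 at both temperatures gets a negative change by centring. The 254 are therefore falls relative to the sample median and need not be falls in density. Uncentred, both ts samples at 37°C lay below both at 25°C in 37 genes. How many of the 254 were at or near 0 was not counted.

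The test of the difference between the strains asked in which genes the change at 37°C was unequal. It was called in 187 genes (15.5%), larger in ts cells in 175 (14.5%) and smaller in 12 (0.993%), with a median difference of 0.74 (limma, Benjamini-Hochberg adjusted p of at most 0.05). DIS3, the exosome nuclease, was at 0 in all 4 CDC33 samples and in both ts samples at 25°C, and at 0.407 and 0.132 in ts cells at 37°C. RTS1, a regulatory subunit of protein phosphatase 2A, was between 0 and 0.0181 in the 6 other samples and at 0.350 and 0.461 in ts cells at 37°C. INO80 (a chromatin remodeling ATPase), MCM5 (a helicase subunit), KAP122 (an importin) and GTA1 completed the 6 largest differences among the genes that passed, at 4.61 to 5.73. In CDC33 cells INO80, MCM5, KAP122 and GTA1 were at 0 in both samples at 37°C. At 25°C these had 0.0260 and 0 (INO80), 0 and 0.0464 (MCM5), 0.00584 and 0.0213 (KAP122) and 0.0326 and 0 (GTA1). A fall from low values in CDC33 cells thus added to their differences. The 6 largest of those that passed in the other direction were DCP2, MAE1 (malic enzyme), ADO1, PNS1, VID27 and VBA4, at -2.65 to -1.63.

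No gene kept this call when the samples were centred on their medians (0 calls, 359 at an unadjusted p below 0.05), where the adjusted p of the genes named above lay between 0.081 and 0.085. None passed either with the samples at 25°C and 37°C of one strain paired by their number (0 calls, 324 at an unadjusted p below 0.05). The count was 59 with the replicate number as a block over both strains, 53 with 0.001 added in place of 0.01, and 70 with samples weighted by their precision. It also moved with single libraries. It was 17 and 24 without either ts sample at 25°C, 35 and 48 without either CDC33 sample at 25°C, 85 and 103 without either CDC33 sample at 37°C, and 343 and 318 without either ts sample at 37°C.

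**Figure D3:**
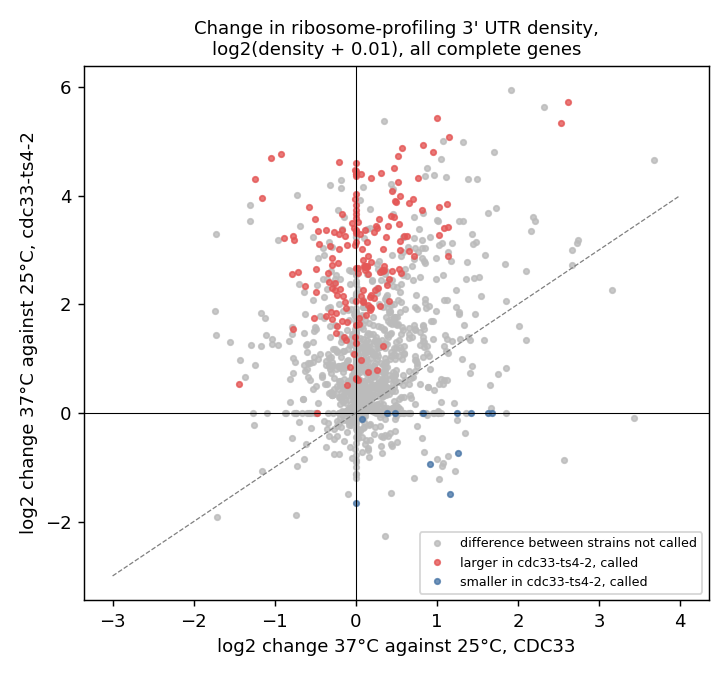
Fitted log2 change in ribosome-profiling 3′ UTR density, log2(density + 0.01), at 37°C against 25°C in CDC33 cells (horizontal) and in ts cells (vertical), 1 point per gene and 2 samples per group. Red marks the 175 genes with a larger change in ts cells, blue the 12 with a smaller one and grey the rest; the dashed line marks equal change.

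Between the strains, few genes passed at 25°C and many at 37°C. At 25°C 2 genes (0.166%) passed, PDR1 higher (0.0828%) and KTR1 lower (0.0828%) in ts cells, with 48 at an unadjusted p below 0.05. At 37°C 394 genes (32.6%) passed, with density higher in ts cells in 378 (31.3%) and lower in 16 (1.32%). PDR1, the transcription factor of multidrug resistance, was listed at 0 in all 4 CDC33 samples, and in ts cells had 0.0420 and 0.0391 at 25°C and 0.508 and 0.478 at 37°C. WHI3, an RNA-binding protein that holds back a cyclin mRNA, had 0.560 and 0.288 in ts cells at 37°C against 0 and 0.0101 in CDC33 cells. PNS1, VBA4 and SGV1, a kinase that acts on RNA polymerase II, were lower, at 0 in both ts samples against 0.0108 to 0.0273. With only the compared samples in the fit, 84 genes passed at 37°C and 0 at 25°C (76 at an unadjusted p below 0.05). The 37°C count was 219 and 248 without either CDC33 sample at 37°C, and the 25°C count 3 to 16 without any 1 of the 8 samples. After centring, 378 genes passed at 37°C, 161 of them higher and 217 lower relative to the sample medians.

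Taking 1 median per sample, log2(median + 0.001) in ribosome profiling was higher by 2.02 at 37°C than at 25°C over both strains. It was higher by 1.24 within CDC33 cells and by 2.81 within ts cells. The added 0.001 is about as large as the medians at 25°C, which lay between 0 and 0.00136, so these differences depend on it and are no fold changes. The exact two-sided permutation test within strains gave p = 0.0556, the smallest value that 36 arrangements can give. The strains differed by 1.18 on the same scale over both temperatures (exact permutation p = 0.167). In RNA-seq the same differences were 0.056 for temperature (exact permutation p = 0.760) and -0.049 for strain (exact permutation p = 0.715), where 400 arrangements allow a p of 0.005. A higher density can come from more fragments on the 3′ UTR or fewer on the coding sequence, and from all cells or a part of the culture, and these cannot be told apart here.

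With equal weight on all samples, fewer genes passed in RNA-seq than in ribosome profiling. In ts cells at 37°C, 30 genes passed (2.48%), of which 25 rose (2.07%) and 5 fell (0.414%), by limma with a Benjamini-Hochberg adjusted p of at most 0.05, with a median change over all genes of 0.03. Of the 25, 7 were among the genes whose ribosome-profiling density rose, beside 36.6% of all genes. With samples weighted by their precision, an alternative chosen after seeing the data, 178 genes passed in RNA-seq and 232 in ribosome profiling of ts cells at 37°C, and 159 and 139 between the strains at 37°C, so the order of the assays depended on the weights. With the samples at 25°C and 37°C paired by number 55 passed in RNA-seq of ts cells, 48 of them rises. In CDC33 cells limma called 0 genes (51 at an unadjusted p below 0.05, 7 with the weights). Paired by number it called 0 there too (75 at an unadjusted p below 0.05). The genes with the smallest p were COG6 and PRM15 upward and MIG1 and R0030W downward, none of which passed. The test of the difference between strains also called 0 (69 at an unadjusted p below 0.05, 61 with the weights), and 0 paired by number (112 at an unadjusted p below 0.05). RIM20 and ISW1 upward, and PMT6 and MCH4 downward, had the smallest p-values of that test (limma, Benjamini-Hochberg adjusted p = 0.148 for the first 3 and 0.25 for MCH4).

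VMA7, a subunit of the vacuolar proton pump, had the largest rise among the genes that passed in RNA-seq. It had 0.376, 0.419 and 0.359 in ts cells at 25°C and 1.95, 1.30 and 1.80 at 37°C, a change of 2.08 ± 0.29 (SE, n = 3 per group; limma, Benjamini-Hochberg adjusted p = 0.008). In CDC33 cells it had 0.254, 0.415 and 0.438 at 25°C and 0.406, 0.360 and 0.768 at 37°C, which overlap. Over all genes, the 3 samples at 37°C lay above the 3 at 25°C in 18.7% and below in 10.7% in ts cells, and in 4.47% and 0.497% in CDC33 cells. The ribosome-profiling density of VMA7 stayed between 0 and 0.00255 in all 8 samples. HSP104, the heat-induced disaggregase, had 1.64, 1.29 and 1.35 at 25°C and 5.09, 4.54 and 4.01 at 37°C in ts cells, and 0.632 to 2.39 in the 6 CDC33 samples. PSP2, RIE1, ABF1 (a general regulatory factor) and SER2 (phosphoserine phosphatase) rose by 1.56 to 1.68.

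Of the 5 genes that fell in RNA-seq, 4 rose in ribosome profiling of the same strain (RPB2, YPP1, MCH4 and PMT6), beside 36.6% of all genes. So few genes cannot be set against that share. RPB2, the second largest subunit of RNA polymerase II, fell from 1.18, 1.22 and 1.40 to 0.692, 0.662 and 0.566 in RNA-seq of ts cells, while its ribosome-profiling density was 0.00290 and 0.00483 at 25°C and 0.206 and 0.243 at 37°C. YPP1 and MCH4 fell in RNA-seq too, and were at 0 in both ribosome-profiling samples at 25°C and between 0.0542 and 0.102 at 37°C. MON2, a Golgi scaffold, was the other gene that fell. PMT6, a protein mannosyltransferase, had 0.710, 0.630 and 0.667 at 25°C and 0.245, 0.307 and 0.352 at 37°C, and at 37°C it was lower than in CDC33 cells (0.603, 0.616 and 0.671). VMA7, higher (0.0828%), and PMT6, lower (0.0828%), were the 2 genes (0.166%) called between the strains at 37°C. At 25°C limma called 0 genes (22 at an unadjusted p below 0.05, 0 with the weights), and CHS7, TFA2, ISW1 and SPB1 had the smallest p-values.

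These RNA-seq counts hung on single libraries. The 30 calls in ts cells became 81 without CDC33 at 25°C replicate 1, the library with the lowest densities, 0 without ts at 37°C replicate 1, between 1 and 13 without any of the other 5 ts samples, and 18 without CDC33 at 37°C replicate 2. The 2 calls between the strains at 37°C became 41 without CDC33 at 25°C replicate 1, 6 without CDC33 at 37°C replicate 3, 3 without ts at 25°C replicate 1, 2 without CDC33 at 25°C replicate 2 and 0 without any 1 of the other 8 samples. In CDC33 cells, and between the strains at 25°C, 1 gene passed without CDC33 at 25°C replicate 3. Centring each sample on its median gave 103 calls in ts cells, 76 up and 27 down, and 68 between the strains at 37°C.

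Coding length, which the choice of genes did not use, went with density in both assays. In 4 groups of coding length, of about equal size (78 to 882, 885 to 1440, 1443 to 2304 and 2307 to 14733 nt), the median RNA-seq density was 0.581, 0.734, 0.937 and 1.68. In ts cells at 37°C the median ribosome-profiling density was 0.00639, 0.0179, 0.0248 and 0.0548. In the same strain at 25°C it was 0.00147, 0.00223, 0.00265 and 0.00181, with no such order. Across 1205 genes Spearman's rho with coding length was 0.63 for RNA-seq, 0.37 for ts cells at 37°C, 0.15 for CDC33 cells at 37°C, 0.05 for ts cells at 25°C and -0.05 for CDC33 cells at 25°C, as a description across genes. The share of genes called higher in ts cells at 37°C was 27.8% in the shortest group and 39.4% to 40.0% in the others, beside 36.6% of all.

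**Figure D4:**
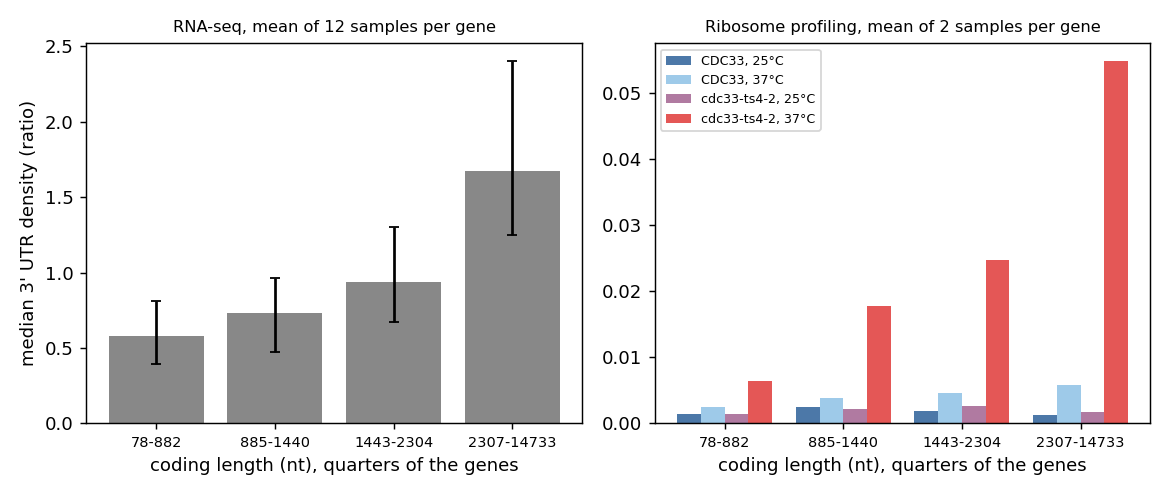
Median 3′ UTR density (ratio) in 4 groups of coding length. Left, RNA-seq, mean of 12 samples per gene, with error bars from the lower to the upper quartile of the genes; right, ribosome profiling by strain and temperature, mean of 2 samples per gene, rising from 0.00639 to 0.0548 in ts cells at 37°C.

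The densities of the assays ranked genes alike only in part. Spearman's rho across 1208 genes between mean RNA-seq density and ribosome-profiling density was 0.40 in ts cells at 37°C, 0.28 in CDC33 cells at 37°C, 0.19 in ts cells at 25°C and 0.11 in CDC33 cells at 25°C. The ratio of ribosome-profiling to RNA-seq density of a gene had a median of 0.0209 in ts cells at 37°C, and of 0.00260 to 0.00457 in the other groups. It was at least 0.1 in 172 of 1205 genes in ts cells at 37°C, and in 3 to 6 genes elsewhere. The highest ratio was 1.12, in VIR1, a component of the mRNA methylation machinery, whose 3′ UTR thus held as many fragments relative to the coding sequence as RNA-seq reads.

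Densities by stop codon are given as a description. Median ribosome-profiling density in ts cells at 37°C was 0.0165 with TAA, 0.0169 with TAG and 0.0208 with TGA, and 41.1%, 28.5% and 34.4% of these genes rose, beside 36.6% of all. With C after the stop codon (82 genes) the median was 0.0385, against 0.0155 to 0.0193 with another base, while 35.4% of them rose. In ts cells at 25°C it was 0.00414 with C and 0.00177 to 0.00201 with another base. The genes with C also had a longer median coding sequence, 1722 nt against 1299 to 1515 nt, and the part of that difference in the densities was not tested. The 13 genes with TGA followed by C had medians of 0.0801 in ts cells at 37°C and 0.00263 to 0.00889 in the other groups. Of them 38.5% rose, beside 36.6% of all. Their median coding length was 2103 nt and their median RNA-seq density 1.19, against 1440 nt and 0.883 over all genes. The part of these differences in their ribosome-profiling density was not tested.

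Among the 256 genes with the authors' 3′ UTR length, RNA-seq density was lower where the UTR was longer, with a median of 1.22 in the shortest of 4 groups (46 to 139 nt) and 0.501 in the longest (292 to 1907 nt). Spearman's rho was -0.45 for RNA-seq and -0.04 for ribosome profiling of ts cells at 37°C. A coding gene on the same strand within 200 nt was rare, in 14 genes. A coding gene on the other strand within 200 nt was found for 248, of which 29.0% rose in ts cells, against 38.7% of the other 957. The authors counted reads by strand.

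The 5′ UTRs of the same genes give a second region over the same coding counts. Of 1167 genes complete in both tables, 90.0% had a higher ribosome-profiling density in the 5′ UTR than in the 3′ UTR in ts cells at 25°C and 83.2% at 37°C. The median change at 37°C in CDC33 cells was 0.72 in the 5′ UTR and 0.09 in the 3′ UTR, and in ts cells 0.79 and 0.90, on the log2(density + 0.01) scale. The added 0.01 weighs more on the lower 3′ UTR densities, so these changes cannot be compared between the regions. In CDC33 cells the median density went from 0.0421 to 0.0808 in the 5′ UTR and from 0.00175 to 0.00375 in the 3′ UTR. In ts cells it went from 0.0617 to 0.168 and from 0.00199 to 0.0171. Both densities share the coding count, and across genes their changes in ts cells had a Spearman's rho of 0.09.

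Gene lists were described by how many of their measured members passed, beside the 36.6% of all genes that rose and the median change of 0.91 in ribosome profiling of ts cells. None of 8 genes listed for readthrough reported in yeast was complete in all samples. Of termination, rescue and nonsense-mediated decay factors, 6 were measured and 2 rose, with a median of 1.03. They were NAM7, the Upf1 helicase of nonsense-mediated decay (0.00654 and 0 at 25°C, 0.142 and 0.230 at 37°C), and STM1, a ribosome-binding protein (0.000609 and 0.000954 at 25°C, 0.00856 and 0.0150 at 37°C). STM1 was below the sample median in both samples at 37°C (0.0102 and 0.0170), and after centring its change was -0.08.

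Of 19 translation initiation and elongation factors 10 rose, with a median of 1.11. TIF4631, the scaffold eIF4G1 that binds eIF4E, was at 0 in both samples at 25°C and at 0.147 and 0.0872 at 37°C. GCD7, a subunit of eIF2B, had 0 and 0.00866 at 25°C and 0.0335 and 0.106 at 37°C. Of 77 cytosolic ribosomal proteins 29 rose and 1 fell, RPL18B, and their median of 0.34 lay below that of all genes. They are short genes, with a median coding length of 432 nt. RPL4A and RPS6B had the largest changes of those that passed, to between 0.0403 and 0.125, and 81.9% and 80.2% of their coding words are repeated elsewhere. Of 11 mitochondrial ribosomal proteins 0 passed, with a median of 0.49.

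Of 36 amino acid synthesis genes 10 rose (median 0.61), among them SER33, the first enzyme of serine synthesis, from 0 in both samples at 25°C to 0.0489 and 0.119. ALT1, the mitochondrial alanine transaminase, was at 0 in both CDC33 samples at 37°C and at 0.0414 and 0.0573 in ts cells, with a difference between strains of 3.34. Of 11 genes of glycolysis and fermentation 6 rose (median 1.06). PFK2, a phosphofructokinase subunit, had 0.00216 and 0.00115 at 25°C and 0.0669 and 0.0615 at 37°C. PYK2, a minor pyruvate kinase, had 0 and 0.00302 at 25°C and 0.0450 and 0.0379 at 37°C.

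Of 17 chaperones and heat shock proteins 5 rose in ribosome profiling (median 0.65), with SSC1, the mitochondrial Hsp70, at 0.00115 and 0.00339 at 25°C and 0.0851 and 0.128 at 37°C. HSP104, whose RNA-seq density rose, was not among them, with 0.00709 and 0.00584 at 25°C and 0 and 0.0129 at 37°C. Of 4 mRNAs localised or regulated through the 3′ UTR 2 rose, IST2 (0 and 0.00833 at 25°C, 0.186 and 0.356 at 37°C) and TPO1 (0.0142 and 0.0298 at 25°C, 0.155 and 0.153 at 37°C). Of 2 cleavage and polyadenylation factors GLC7, the type 1 phosphatase, rose from 0.00501 and 0.00494 to 0.126 and 0.0927. ACT1, the actin gene and the only measured gene with alternative 3′ ends described, rose from 0.00210 and 0.00213 to 0.0103 and 0.00991, less than the median gene, and its change was -0.35 after centring.

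Coverage along the 3′ UTR fell toward its end in RNA-seq and was low throughout in ribosome profiling. The authors' coverage, scaled to a mean of 1 per gene and averaged over genes with long enough regions, splits the 3′ UTR into 100 bins and is not limited to the 1208 genes. Over the 3′ UTR it averaged 0.991 to 1.51 in the RNA-seq samples, 0.0803 and 0.0913 in the ts ribosome-profiling samples at 37°C, and 0.0110 to 0.0224 in the other 6. The first 20 bins held 24.5% to 30.2% of the 3′ UTR coverage in RNA-seq and 20.9% to 36.3% in ribosome profiling, a difference of 0.583 percentage points (exact permutation of the assay within groups, two-sided p = 0.656). In the first 10 bins alone ribosome profiling held 2.84 percentage points more (exact permutation p = 0.0086), and in the first 50 bins less, a difference of -4.67 points (exact permutation p = 0.0043). Within ribosome profiling the first 10 bins held 18.8% to 21.6% in the 4 samples at 25°C and 10.5% to 15.3% in the 4 at 37°C, which did not overlap. The ts samples at 37°C, with 12.7% and 10.5%, had the lowest shares of the 8 ribosome-profiling samples in these bins, but not in wider windows. In the first 20 bins they held 23.7% and 20.9%, against 23.3% and 26.0% in CDC33 cells at 37°C. In the first 50 bins the shares were 58.6% and 55.5% against 50.2% and 55.1%. The higher coverage in ts cells at 37°C was thus not confined to the first 10 bins.

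**Figure D5:**
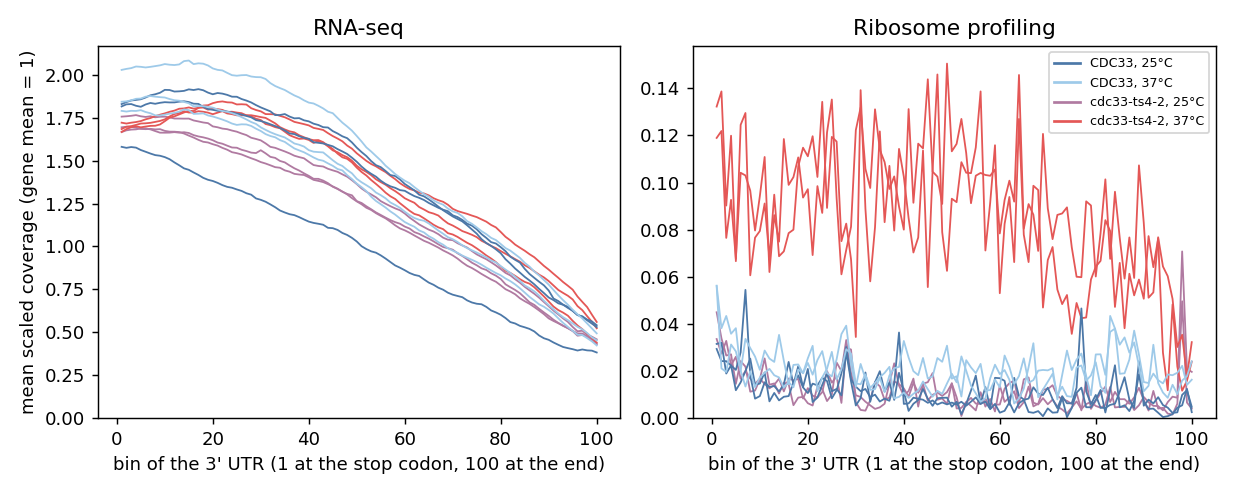
Mean scaled coverage (gene mean of 1, linear axes of different range) in 100 bins of the 3′ UTR, 1 line per sample, for RNA-seq (12 samples) and ribosome profiling (8 samples). RNA-seq falls toward the end of the 3′ UTR, and the ts samples at 37°C lie above the other 6 ribosome-profiling samples, at means of 0.0803 and 0.0913.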

How the data were processed

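The authors aligned reads to the R64-1-1 genome with STAR 2.7.10b, kept reads with 1 position and counted them by strand with featureCounts, requiring at least 50% of a read in a feature, according to the study's methods and the submitters' processing notes. From these counts the authors made the deposited ratio, 3′ UTR reads per nt over coding reads per nt, using annotated UTRs or defaults of 200 nt (3′) and 120 nt (5′). The deposited coverage signal was scaled by the authors to a mean of 1 per gene over genes with features of at least 100 nt and 128 coding reads. Mean normalized counts were taken as the authors' mean. Columns of the authors' own comparisons (fold changes and p-values) were not used, and the study's removal of outliers before plotting was not repeated. Coding lengths in the deposited file equalled the RefSeq R64 reference in 255 of 255 genes compared.

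The 20 samples were 12 of RNA-seq (3 per group) and 8 of ribosome profiling (2 per group). The study calls its replicates biological. It divided cultures between 25°C and 37°C, and whether a replicate number marks 1 culture is not given in the sources used here. Deviations of same-numbered samples at both temperatures correlated at 0.183 to 0.204 in RNA-seq of CDC33 cells and 0.0636 to 0.327 of ts cells. Differently numbered samples gave -0.166 to -0.0348 in CDC33 cells and -0.258 to 0.168 in ts cells. In ribosome profiling same-numbered samples gave -0.0618 (CDC33) and 0.0514 (ts). Differently numbered ones gave the same sizes with opposite sign, as 2 samples per group must. Densities were tested as log2(density + 0.01), a scale that understates changes of low genes, with limma 3.58.1 in R 4.3.3, all 4 groups of an assay sharing 1 estimate of the spread, and p-values were adjusted over 1208 genes by Benjamini-Hochberg with a threshold of 0.05. Sample medians were compared as log2(median + 0.001), since 1 median is 0, by exact permutation (Python 3.11.15, numpy 2.4.6, scipy 1.17.1). Scripts were tested on simulated data, which had no floor at 0. Of 100 genes given a log2 change of 1 in ts cells at 37°C, 39% were recovered in ribosome profiling and 79% in RNA-seq. For a change of 2 the shares were 61% and 100%. Unchanged genes gave 4 and 8 false calls. Many real changes in ribosome profiling may thus have been missed. The depth of each sample is unknown, because the files used hold no read counts per sample. Alternatives changed the added constant (0.001 or 0.1), filtered on mean density (at least 0.01 in ribosome profiling, 0.1 in RNA-seq), centred samples on their medians, left out outlying genes or single samples, or added the replicate number as a block. Fits of the compared groups alone, with samples weighted by precision or with temperatures paired by number within each strain were chosen after seeing the data.

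Genes are named by a rule: the 10 highest and 5 lowest in RNA-seq and the 10 highest in ribosome profiling by the mean over groups; up to 6 largest rises and falls that passed in each temperature comparison and in the difference between strains, and 3 in each strain comparison, or the 2 smallest p-values per direction where none passed; genes not called lower in ribosome profiling; and up to 2 genes per list with the largest change that passed. The genes and lists were chosen with earlier results of these data known.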

Additional observations from a re-analysis of the deposited data

Results flagged for a closer look

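The change in ribosome-profiling 3′ UTR density at 37°C differed between the strains in 187 of 1208 genes by the interaction term of the limma fit, and in 0 after centring or with temperatures paired by replicate number (359 and 324 at an unadjusted p below 0.05). The fitted differences, cdc33-ts4-2 minus CDC33 on the log2(density + 0.01) scale, were 5.73 in GTA1, 5.70 in INO80, 5.55 in MCM5, 5.10 in KAP122, 4.82 in RTS1 and 4.61 in DIS3. They were -2.65 in DCP2, -1.996 in MAE1, -1.86 in ADO1, -1.68 in PNS1, -1.66 in VID27 and -1.63 in VBA4. GTA1, INO80, MCM5 and DIS3 were listed at 0 in both ts samples at 25°C. GTA1, INO80, MCM5, KAP122 and DIS3 were at 0 in both CDC33 samples at 37°C. DCP2, MAE1, ADO1, PNS1, VID27 and VBA4 were at 0 in both ts samples at 37°C. These sizes therefore depend on the added constant.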

How the results depend on the processing

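Of the alternative values of named genes, 1062 stayed on the same side of the threshold in the same direction, 322 no longer passed, 8 newly passed and 2 reversed, STM1 (-0.081) and ACT1 (-0.35) after centring. In ribosome profiling the calls, in the order heat in CDC33 cells, heat in ts cells, difference between the strains, strain at 25°C and strain at 37°C, were 11, 449, 187, 2 and 394. With 0.001 added, heat in CDC33 cells gave 30, the difference 53 and the strains 12 at 25°C and 198 at 37°C. With 0.1 added, heat in CDC33 cells gave 5 and the strains at 25°C 1. The filter gave 1 and 0 for these, and centring 0 and 0, with 0 for the difference. Without outlying genes 1 gene passed between the strains at 25°C. Weighting samples gave 232 for heat in ts cells, 70 for the difference, 6 and 139 for the strains, and fitting the compared groups alone gave 0, 218, 0 and 84 for both heat and both strain comparisons. In RNA-seq, heat in ts cells (30) gave 103 centred, 178 weighted and 64 with the compared groups alone. The strains at 37°C (2) gave 4 with 0.1 added or filtered, 68 centred, 159 weighted and 0 with the compared groups alone. Heat in CDC33 cells gave 7 weighted, and the difference 3 centred and 61 weighted. Centring split the assay comparison into 587 higher and 226 lower relative to the sample medians, 813 in all. Deviations of same-numbered samples of both strains at 1 temperature correlated at -0.194 to 0.0345 in RNA-seq and 0.00207 to 0.0376 in ribosome profiling. The replicate block over both strains gave 4 for heat in CDC33 cells, 59 for the difference and 1 for the strains at 25°C. The replicate block within each strain gave 0, 281 and 0 for heat in CDC33 cells, heat in ts cells and the difference, and 55 for heat in ts cells in RNA-seq. The block moved no other count by over 1.5 times. The coverage difference was 2.84 points in the first 10 bins and reversed to -4.67 in the first 50.

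Leaving out 1 sample, calls ranged from 4 to 30, 229 to 565, 17 to 343, 3 to 16 and 219 to 489 in the order above. In RNA-seq they ranged from 0 to 1, 0 to 81, 0 to 0, 0 to 1 and 0 to 41, and for the assays from 1204 to 1205. The log2 differences of medians ranged from 1.72 to 2.33 (temperature) and 0.87 to 1.49 (strain) in ribosome profiling. In RNA-seq they ranged from -0.058 to 0.12 and -0.16 to 0.016, reversing to -0.058 without CDC33 at 25°C replicate 1 and to 0.016 and 0.00097 without its replicates 2 and 3. The coverage difference ranged from -0.23 to 1.40 and reversed to -0.23 without CDC33 at 25°C replicate 2 of ribosome profiling. The cause of these shifts was not tested. The depth of each sample is unknown, and densities near 0 were not graded by their precision.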
